A study of Homo sapiens with 18 samples.

Results

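Epiregulin (EREG), 3 other ligands of the epidermal growth factor receptor (AREG, TGFA and BTC), the receptors EGFR, ERBB2 and ERBB3, and the receptor inhibitor ERRFI1 were followed across 6 ovarian cancer cell lines. These 8 genes were chosen by name, and all 8 were among the 12853 genes of the expression table. The set was built around EREG because its RNA was higher in the resistant line of both patient-derived pairs, so its PEA and PEO changes are described here without a test. The stated reason for the choice uses no values of the other 7 genes, but the set was chosen with earlier results of these data known.

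RNA was sequenced from 3 replicates of each line, giving 18 libraries. A2780, PEA1 and PEO1 carry the label of clinical platinum sensitivity sensitive, and CP70, PEA2 and PEO4 the label resistant. A2780 is labelled as an endometrial/ovarian cancer line, and CP70 is the resistant line derived from it in culture. PEA1 and PEA2 came from the ascites of 1 patient with high-grade serous ovarian cancer, taken before platinum treatment and after relapse, and PEO1 and PEO4 came from 1 patient before and after resistance developed, with PEO1 itself taken after platinum-based treatment. All 6 lines grew in the same RPMI-1640 medium with glutamine and serum, and the labels of these libraries name no drug. Each condition of a pair is therefore 1 cell line, and a difference between the lines of a pair cannot be told apart from other differences between those lines. Nothing in the labels says that replicates were separate cultures, so the tests measure the spread between these libraries, which may be technical. The fit takes 1 spread per gene over all 6 lines, so the interval and FDR of a pair also carry the spread of the other lines. For ERBB3 the standard error was 0.48 in every pair, with an SD of 1.5 in A2780 and 0.04 in PEO4.

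Ligands of this family are made as precursors in the cell membrane and are released when proteases of the ADAM family cut them. A released ligand joins receptors into pairs, and the paired kinases signal through the RAS-ERK and PI3K routes. EGFR binds EREG, AREG, TGFA and BTC, ERBB2 has no known ligand of its own and acts as a partner, ERBB3 binds neuregulins and has a weak kinase, and ERRFI1 (also called MIG6) is a feedback inhibitor that binds the EGFR kinase.

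Expression is given as the log2 value of the table, which is log2 CPM (read counts scaled to library size) with 0.5 reads added to each count. The libraries held between 1344098 and 7067336 reads on the listed genes (median 2926659.5), so 3 reads, taken here as the floor, corresponded to 0.452 to 2.18 CPM, with the shallowest library in PEA1. Intervals and floors cover counting error only where they come from reads. Of 10 markers of ovarian epithelium, 10 were above the floor in PEA2, PEO1 and PEO4, 7 in PEA1, 4 in CP70 and 1 in A2780, and the Müllerian lineage factor PAX8 was at or under the floor in A2780 and CP70. In bulk RNA, fewer cells that express a gene and less RNA per cell cannot be told apart.

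Among the ligands, EREG was highest in PEA2 and was higher in the resistant line of both patient-derived pairs. AREG rose in PEA2 but fell in PEO4, BTC moved in the same directions as AREG, and TGFA was well above the floor in all 4 patient-derived lines and did not pass in either of their pairs. In the A2780 pair all 4 ligands were at or near the floor. The plot of every library shows these patterns gene by gene.

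**Figure D1:**
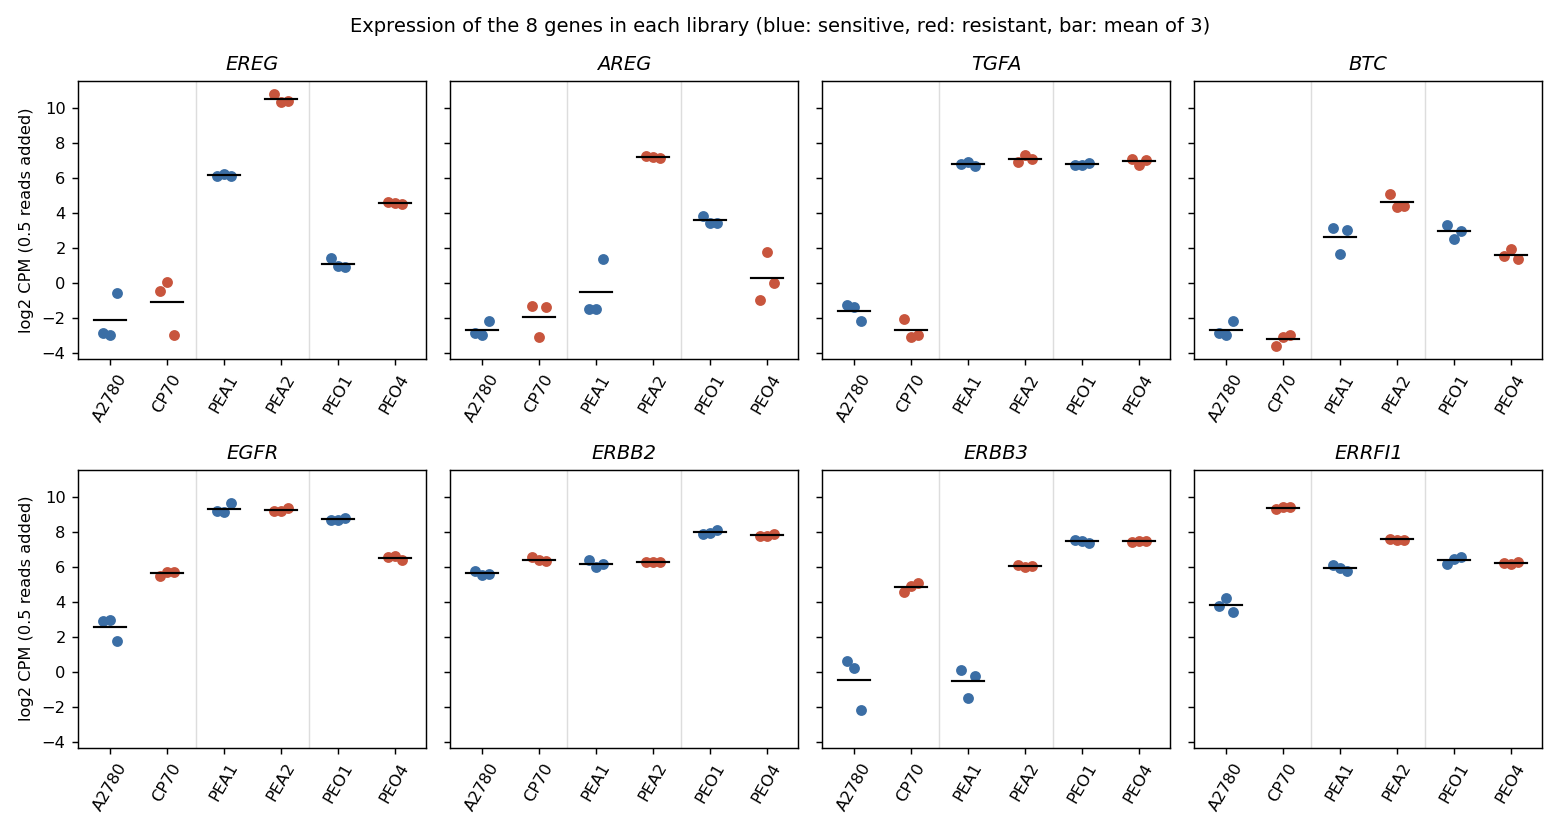
Expression of the 8 genes in each of the 18 libraries. The vertical axis is the deposited log2 CPM value with 0.5 reads added, the horizontal axis the 6 lines in their pairs, blue points are libraries of sensitive lines, red points those of resistant lines, and bars are means of 3. EREG reaches 10.84 in PEA2, ERBB3 lies near the floor in A2780 and PEA1, and values below about 1 rest on few reads.

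EREG (ENSG00000124882, GRCh37 chromosome 4, 75230862 to 75254466, plus strand) encodes a low-affinity ligand of EGFR and ERBB4. Its log2 value was 6.13, 6.22 and 6.14 in the 3 PEA1 libraries and 10.84, 10.38 and 10.44 in the 3 PEA2 libraries. It was 1.47, 0.98 and 0.91 in PEO1 and 4.63, 4.58 and 4.54 in PEO4. Every resistant library thus lay above every sensitive library of its pair. The mean log2FC was 4.39 for PEA2 over PEA1 and 3.46 for PEO4 over PEO1. No interval is given beside these values, because they led to the choice of EREG. The bars drawn for them in the plots of changes are not a test. Quantile normalization moved these values to 4.03 and 4.85, both beyond the replicate spread, and so turned the order of the pairs. The depth behind these values differed widely, with 3044 to 4636 reads per library in PEA2, 96 to 122 in PEA1, 57 to 71 in PEO4 and only 5 to 12 in PEO1. The PEO1 mean of 1.12 ± 0.31 (SD, n = 3) is therefore the least precise of the 4.

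The order of the EREG levels was PEA2, PEA1, PEO4, PEO1, CP70 and A2780, and only CP70 and A2780 overlapped. The sensitive line PEA1 lay 1.58 above the resistant line PEO4 on the log2 scale, so the level itself did not separate resistant from sensitive lines across pairs. A2780 held 0, 0 and 1 EREG reads and CP70 held 4, 4 and 0. The log2FC between them was 1.03 (95% confidence interval -0.21 to 2.27) and did not pass (FDR = 0.182, limma), and leaving out A2780 replicate 3 gave 1.80 (FDR = 0.0146), or CP70 replicate 3 instead 1.95 (FDR = 0.00334), both past the threshold.

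AREG (ENSG00000109321, GRCh37 chromosome 4, 75310853 to 75320722, plus strand), amphiregulin, lies next to EREG. Its libraries held 0, 0 and 4 reads in PEA1 and 294, 510 and 313 in PEA2, with log2 values of -1.46, -1.49 and 1.37 against 7.30, 7.20 and 7.16. In the PEO pair the libraries held 44, 30 and 73 reads in PEO1 and 1, 10 and 2 in PEO4, with log2 values of 3.86, 3.45 and 3.47 against -0.95, 1.81 and 0.02. The lines of each pair did not overlap, and the directions were opposite. The log2FC reached 7.75 from PEA1 to PEA2 (standard error 0.70, FDR = 1.07e-08, limma) and -3.30 from PEO1 to PEO4 (standard error 0.70, FDR = 0.000769, limma), both dependent on the 0.5 reads added because 1 line had few reads. The first ranged from 6.28, with 2 reads added in place of 0.5, to 8.69, without PEA1 replicate 3. The second ranged from -2.68, without PEO4 replicate 1, to -4.28 under quantile normalization, and was -4.06 without PEO4 replicate 2. The change in the PEA pair exceeded that in the PEO pair by 11.04 (standard error 0.99, FDR = 1.41e-08, limma contrast of the changes). A2780 held 0 AREG reads and CP70 at most 2, so no fold is given.

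AREG reads are uncertain because the genome assembly holds a near-identical copy, AREGB (ENSG00000205595), 159907 bases further along the chromosome. Over 9876 aligned bases of the gene spans, 9837 were identical (99.6%). AREGB had 199, 321 and 196 reads in PEA2, at most 3 in PEA1, 33, 11 and 43 in PEO1, and 0, 9 and 2 in PEO4, so it followed AREG and the counting could have split reads between the copies. With the reads of both summed, which was chosen after seeing the data, the log2FC became 8.22 for PEA2 (FDR = 1.12e-07, limma) and -3.35 for PEO4 (FDR = 0.00434, limma).

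The promoter sequences of EREG and AREG are shown because these neighbouring genes were both higher in PEA2 but lay in opposite directions in PEO4. Each is the 250 bases before the RefSeq start on GRCh38.p14, at chr4:74364895-74365144 for EREG and chr4:74444886-74445135 for AREG, both on the plus strand, and capitals mark matches to the motifs searched on both strands.
EREG promoter: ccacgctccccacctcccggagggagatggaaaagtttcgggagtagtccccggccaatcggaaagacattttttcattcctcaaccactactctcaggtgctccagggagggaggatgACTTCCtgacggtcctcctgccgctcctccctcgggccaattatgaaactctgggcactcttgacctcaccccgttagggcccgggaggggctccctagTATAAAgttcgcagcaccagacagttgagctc
AREG promoter: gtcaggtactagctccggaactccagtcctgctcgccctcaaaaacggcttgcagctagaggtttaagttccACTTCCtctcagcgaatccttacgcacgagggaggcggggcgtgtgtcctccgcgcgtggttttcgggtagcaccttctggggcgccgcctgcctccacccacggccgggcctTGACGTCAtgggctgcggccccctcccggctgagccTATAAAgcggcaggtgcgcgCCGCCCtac
Both hold a TATA box (TATAAA), 32 bases before the start in EREG and 29 in AREG, and both hold the ETS core GGAAGT, here as its reverse complement, 131 bases before the start in EREG and 178 in AREG. AREG alone holds the cyclic AMP response element TGACGTCA, at 65 bases, and the GC box GGGCGG, as its reverse complement at 9 bases, and neither holds the AP-1 site TGANTCA. Of 35116 promoters of the same length, TATAAA was found in 10.7%, GGAAGT in 19.5%, TGACGTCA in 1.65%, GGGCGG in 42.6% and TGANTCA in 6.57%. A match is a run of letters and not a site shown to be bound. Of the 8 genes, 7 were found in the promoter table.

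TGFA (ENSG00000163235, GRCh37 chromosome 2, 70674416 to 70781325, minus strand), transforming growth factor alpha, was the steadiest ligand. Its log2 value was 6.82 ± 0.09 in PEA1, 7.12 ± 0.22 in PEA2, 6.79 ± 0.09 in PEO1 and 6.96 ± 0.19 in PEO4 (SD, n = 3 in each line), and in the order PEA2, PEO4, PEA1 and PEO1 neighbours overlapped. The PEA1 libraries all lay below those of PEA2, but only just, with the highest at 6.91 against the lowest at 6.92. The log2FC was 0.30 for PEA2 (95% confidence interval -0.27 to 0.86, FDR = 0.351, limma) and 0.17 for PEO4 (-0.39 to 0.73, FDR = 0.654, limma). Neither interval reached 1 on the log2 scale. In A2780 and CP70 every library held 0 or 1 TGFA reads, so although the pair passed the test on log2 values (FDR = 0.0029, limma), no fold is given.

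BTC (ENSG00000174808, GRCh37 chromosome 4, 75669969 to 75719733, minus strand), betacellulin, is a ligand of EGFR and ERBB4 and was measured from few reads in every line. The log2 value of BTC was 3.18, 1.68 and 3.06 in PEA1 and 5.10, 4.34 and 4.44 in PEA2, from 4 to 14 reads against 47 to 70. It was 3.36, 2.56 and 3.01 in PEO1 and 1.56, 1.94 and 1.40 in PEO4, from 16 to 53 reads against 6 to 11. The lines did not overlap in either pair. BTC rose by a log2FC of 1.99 in PEA2 (standard error 0.43, FDR = 0.000489, limma), just under the threshold of 2, and its log2FC in the PEO pair was -1.35 (standard error 0.43, FDR = 0.0161, limma). Leaving out PEO1 replicate 1 (-1.15, FDR = 0.0714) or PEO4 replicate 3 (-1.23, FDR = 0.0574) ended the call in the PEO pair, and quantile normalization gave -2.12 (FDR = 0.000562). The PEA change exceeded the PEO change by 3.33 (standard error 0.61, FDR = 1e-04, limma contrast of the changes). All 6 libraries of the A2780 pair held 0 BTC reads.

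Compared per kilobase of exon, which allows genes to be ranked within a line, the leading ligand was not the same in each line. In PEA2 the mean log2 CPM per kb was 8.04 for EREG, 6.50 for AREG, 4.82 for TGFA and 3.22 for BTC. In PEA1, PEO1 and PEO4 the leading ligand was TGFA, at 4.52, 4.50 and 4.67, and EREG stood at 3.65, -1.39 and 2.07. EREG therefore stood above TGFA in PEA2 and below it in PEO4, as the plot of length-scaled levels shows.

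**Figure D2:**
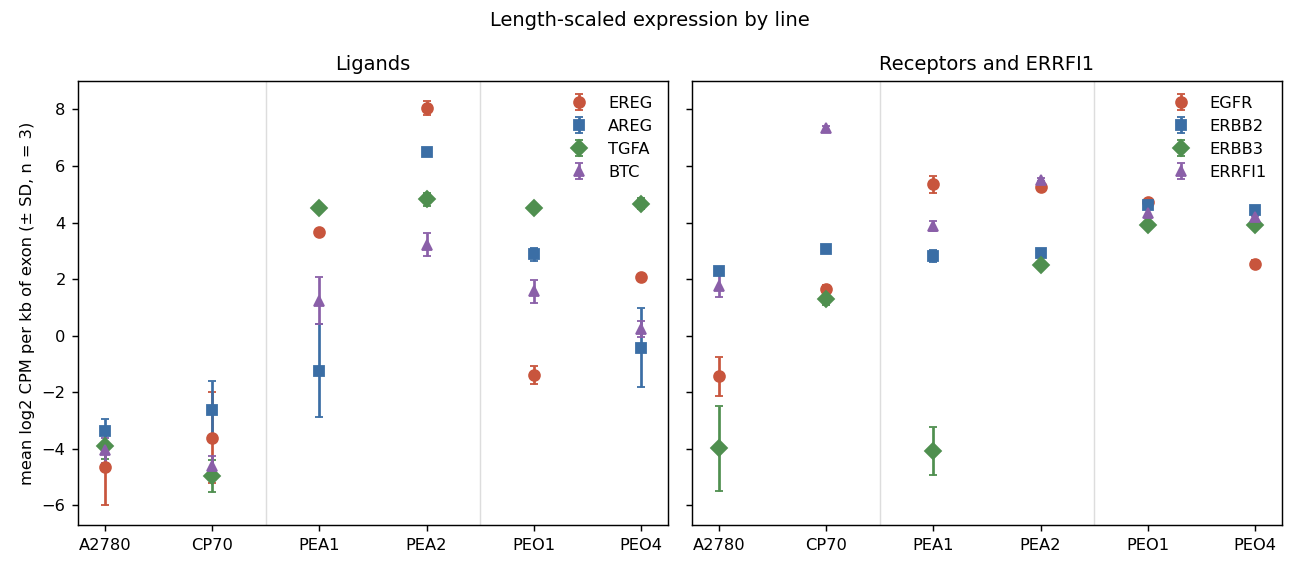
Length-scaled expression of the ligands (left) and of the receptors with ERRFI1 (right) in the 6 lines. Points are means of 3 libraries in log2 CPM per kb of exon and bars are SD. EREG is the highest ligand in PEA2 at 8.04, TGFA is the highest at 4.50 to 4.67 in PEA1, PEO1 and PEO4, and ERRFI1 is the highest gene on the right in CP70 at 7.34.

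Among the receptors, the changes differed from pair to pair. EGFR rose in CP70, fell in PEO4 and did not pass in the PEA pair. ERBB3 rose in CP70 and PEA2, the lines whose sensitive partners had it near the floor, and did not pass in the PEO pair, where it was high in both lines. ERBB2 changed by less than 2-fold in every pair.

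EGFR (ENSG00000146648, GRCh37 chromosome 7, 55086710 to 55279321, plus strand) overlaps EGFR-AS1 on the opposite strand. Its log2 value was 2.94, 2.98 and 1.75 in A2780, from 27, 30 and 7 reads, and 5.47, 5.71 and 5.73 in CP70. It was 9.18, 9.17 and 9.68 in PEA1, 9.20, 9.20 and 9.36 in PEA2, 8.71, 8.69 and 8.78 in PEO1 and 6.57, 6.64 and 6.41 in PEO4. The PEA lines overlapped, and every other neighbour in the order PEA1, PEA2, PEO1, PEO4, CP70 and A2780 was separate. EGFR was 8.47-fold higher in CP70 than in A2780 (log2FC 3.08, standard error 0.22, FDR = 3.72e-10, limma). It was 4.55-fold lower in PEO4 than in PEO1 (log2FC -2.19, standard error 0.22, FDR = 1.08e-07, limma), the pair in which EREG was higher in the resistant line. The PEA log2FC was -0.09 (95% confidence interval -0.54 to 0.37, FDR = 0.744, limma). All 3 differences between the changes of the pairs passed, from 2.10 between the PEA and PEO pairs (FDR = 8.5e-06, limma) to -5.27 between the PEO and A2780 pairs (FDR = 3.2e-11, limma).

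ERBB2 (ENSG00000141736, GRCh37 chromosome 17, 37844167 to 37886679, plus strand), the receptor also called HER2, overlaps MIEN1 and PGAP3 on the opposite strand. Its log2 value was 5.64 ± 0.10 in A2780, 6.43 ± 0.12 in CP70, 6.18 ± 0.20 in PEA1, 6.30 ± 0.01 in PEA2, 7.98 ± 0.11 in PEO1 and 7.81 ± 0.07 in PEO4 (SD, n = 3 in each line). It was highest in the PEO lines and was 1.72-fold higher in CP70 than in A2780 (log2FC 0.79, standard error 0.10, FDR = 3.46e-06, limma). In the patient-derived lines the log2FC was 0.11 for PEA2 (95% confidence interval -0.11 to 0.33, FDR = 0.366, limma) and -0.18 for PEO4 (-0.40 to 0.04, FDR = 0.184, limma), although the libraries of PEO4, at 7.76 to 7.88, all lay below those of PEO1, at 7.91 to 8.11. The difference between those changes was 0.29 (FDR = 0.0978, limma) and passed only without PEA1 replicate 1 (0.39, FDR = 0.0275).

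ERBB3 (ENSG00000065361, GRCh37 chromosome 12, 56470583 to 56497289, plus strand), the neuregulin receptor HER3, had the widest range of the receptors. It had 5, 4 and 0 reads in A2780 and 148, 128 and 126 in CP70, with log2 values of 0.62, 0.22 and -2.16 against 4.60, 4.93 and 5.06. It had 1, 0 and 1 reads in PEA1 and 128, 223 and 145 in PEA2, with log2 values of 0.12, -1.49 and -0.21 against 6.10, 6.01 and 6.06. In the PEO lines every library was between 7.37 and 7.54. The lines of the A2780 and PEA pairs were far apart and those of the PEO pair overlapped.

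The ERBB3 log2FC was 5.30 in the A2780 pair (standard error 0.48, FDR = 1.81e-08, limma), a value that rests on the few A2780 reads and was 4.14 under quantile normalization, 4.4 with 2 reads added and 4.44 without A2780 replicate 3. PEA2 was at least 32.9-fold higher than PEA1 when PEA1 was set to the floor of 3 reads (FDR = 4.64e-10, limma). The PEO log2FC was -0.01 (95% confidence interval -1.01 to 1.0, FDR = 0.993, limma), and the PEA change exceeded it by 6.59 (standard error 0.68, FDR = 9.23e-08, limma). The PEA and A2780 changes differed by 1.28 (FDR = 0.117, limma), which passed without A2780 replicate 3 (2.14, FDR = 0.000299). The summed level of the 10 markers was 2.24 to 3.13 CPM in A2780 and 90.5 to 96.5 in CP70, 432 to 590 in PEA1 and 4190 to 4460 in PEA2, and 7720 to 8740 in PEO1 and 6190 to 7880 in PEO4. Within pairs this sum was higher in CP70 and PEA2, where ERBB3 was higher too, and its ranges overlapped in the PEO pair. Across pairs it was higher in PEA1, with ERBB3 at the floor, than in CP70, where ERBB3 had a mean log2 value of 4.86. Of the 10 markers, PAX8 had a mean log2 value of 8.35 in PEA1 and 8.33 in PEA2, and WT1 2.64 and 2.91. All the other markers were higher in PEA2. CDH1 had 0.25 in PEA1 and 9.53 in PEA2, KRT7 0.82 and 10.05, EPCAM 3.98 and 8.58, and KRT18 6.1 and 8.59. The markers KRT7 and KRT19 were at or under the floor in A2780, CP70 and PEA1. PEA2 was also the only line above the floor for the leukocyte marker PTPRC (20.1 to 25.1 CPM) and the endothelial marker CDH5 (25.3 to 36.1 CPM), each the only gene of its list in the table. The fibroblast markers, 4 of 5 in the table, summed to 366 to 447 CPM in PEA1 and 3.17 to 4.12 in PEA2, where DCN, LUM and COL3A1 were at or under the floor in both lines. The part of these markers in the ERBB3, EREG and AREG differences of the PEA pair was not tested. Neither was their part in the ERBB3 difference of the A2780 pair.

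ERRFI1 (ENSG00000116285, GRCh37 chromosome 1, 8064464 to 8086369, minus strand), the feedback inhibitor of EGFR, showed the largest read counts of the 8 genes outside PEA2. The log2 value of ERRFI1 was 3.76, 4.23 and 3.45 in A2780 and 9.33, 9.44 and 9.44 in CP70, from 24 to 72 reads against 2644 to 3931. It was 6.10, 5.93 and 5.76 in PEA1 and 7.62, 7.57 and 7.56 in PEA2. The lines of both pairs were separate, and those of the PEO pair overlapped at 6.20, 6.47 and 6.58 against 6.25, 6.19 and 6.29. ERRFI1 was 48.2-fold higher in CP70 (log2FC 5.59, standard error 0.14, FDR = 5.35e-17, limma) and 3.14-fold higher in PEA2 (log2FC 1.65, standard error 0.14, FDR = 6.31e-09, limma). The PEO log2FC was -0.17 (95% confidence interval -0.47 to 0.13, FDR = 0.367, limma), and all 3 differences between pairs passed, with FDR from 1.49e-14 to 2.74e-07 (limma).

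Counted over the 7 genes other than EREG, the FDR was below 0.05 upward for 4 in the A2780 pair (EGFR, ERBB2, ERBB3 and ERRFI1), against 22.2% of all genes, and downward for 1 (TGFA, near the floor), against 17.7%. In the PEA pair 4 rose (AREG, BTC, ERBB3 and ERRFI1), against 32.5% of all genes, and 0 fell, against 29.4%. In the PEO pair 0 rose, against 19.6%, and 3 fell (AREG, BTC and EGFR), against 21.9%. The called genes differed from pair to pair, and ERBB3 and ERRFI1 were the members called upward in more than 1 pair. The median log2FC of the 7 genes was 0.79, 1.65 and -0.18 in the A2780, PEA and PEO pairs, against -0.02, 0.01 and -0.02 over all genes.

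With |log2FC| above 2 also required, 3 of the 7 were up in CP70 (EGFR, ERBB3 and ERRFI1), against 5.66% of all genes, and 0 were down, against 3.4%. In PEA2 these counts were 2 up (AREG and ERBB3), against 7.93%, and 0 down, against 6.15%. In PEO4 they were 0 up, against 2.86%, and 2 down (AREG and EGFR), against 3.37%. The change differed between the PEA and PEO pairs for 5 of the 7 genes (all but TGFA and ERBB2), where 58.7% of all genes did. It differed between the PEA and A2780 pairs for 6 (all but ERBB3), against 57.5%, and between the PEO and A2780 pairs for 6 (all but BTC), against 47.5%. These shares of all genes were high, so a difference between pairs is common in these data.

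**Figure D3:**
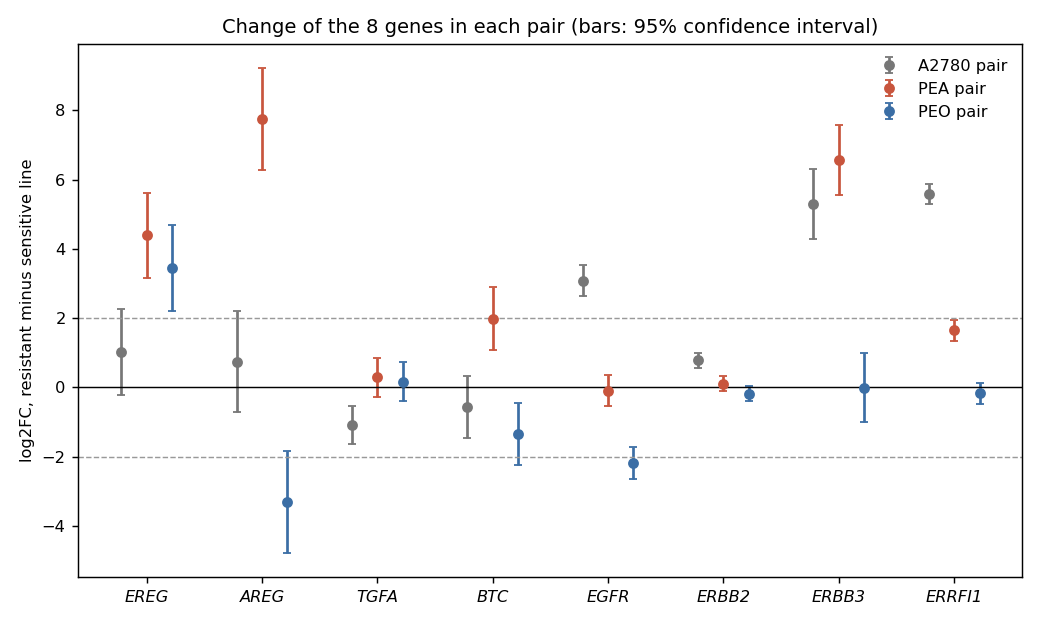
Change of the 8 genes in each pair. The vertical axis is the log2FC of the resistant minus the sensitive line, bars are 95% confidence intervals from the fit of 18 libraries, and dashed lines mark a log2FC of 2 in each direction. The EREG bars of the PEA and PEO pairs are not a test, because those changes led to the choice of EREG. AREG is at 7.75 for PEA2 and -3.30 for PEO4, and the A2780 values of EREG, AREG, TGFA and BTC come from at most 4 reads per library.

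The sensitive lines were compared with each other, where most genes of the table differed and the counts of members lay near the share of all genes or not far above it. Between PEO1 and A2780, 7 of 7 passed the FDR, against 72% of all genes, and between PEA1 and A2780, 6 of 7, against 71.9%. EGFR was higher than in A2780 by a log2 difference of 6.79 in PEA1 (FDR = 4.84e-16, limma) and 6.17 in PEO1 (FDR = 1.76e-15, limma). Between PEA1 and PEO1, 5 of 7 passed, against 68.1%. ERBB3 was lower in PEA1 than in PEO1 (log2 difference -8.0, FDR = 2.13e-11, limma), and TGFA differed by 0.03 (95% confidence interval -0.53 to 0.59, FDR = 0.934, limma). The sensitive PEA and PEO lines thus lay close in TGFA and far apart in ERBB3. ERBB3 in PEA1 and A2780 differed by -0.08 (95% confidence interval -1.09 to 0.92, FDR = 0.881, limma).

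The other ligands and the remaining receptor were read from a fixed list. Of 7 further ligands, HBEGF and NRG1 were in the table. HBEGF, a heparin-binding ligand of EGFR and ERBB4, rose in CP70 (log2FC 2.13, FDR = 0.000172, limma) and in PEA2 (4.30, FDR = 1.07e-08, limma), and its PEO log2FC was -0.68 (FDR = 0.181, limma). NRG1, a neuregulin that binds ERBB3 and ERBB4, fell in PEA2, the line in which ERBB3 rose. Its level was a log2 value of 7.15 ± 0.22 in PEA1 and 3.54 ± 0.36 in PEA2 (SD, n = 3), a log2FC of -3.60 (FDR = 1.71e-10, limma). It was 0.67 higher on the log2 scale in PEO4 (FDR = 0.0348, limma) and at least 2.33-fold higher in CP70, against A2780 libraries with 0 reads. ERBB4, which binds EREG as well, rose in PEO4 from at most 7 reads per library in PEO1 to as many as 134 (log2FC 6.67, FDR = 6.27e-08, limma). In the other pairs it was near the floor, at least 1.25-fold higher in PEA2 and at least 1.87-fold lower in CP70.

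EREG, AREG and BTC lie in a cluster of genes on chromosome 4q13 beside the CXC chemokines. Of 14 listed neighbours, 13 were in the table, and 5 of these rose in PEA2 and fell in PEO4 (IL8, CXCL1, CXCL2, AREGB and PARM1). The share of all genes that did both is not given here. AREGB, the near-identical copy of AREG, may hold AREG reads and is included in the PEA2 and PEO4 counts that follow. In PEA2 9 of the 13 rose, against 32.5% of all genes, and 0 fell, against 29.4%. In PEO4 0 rose, against 19.6%, and 9 fell, against 21.9%. In CP70 2 rose, against 22.2%, and 0 fell, against 17.7%. The called sets were not the same. CXCL6, CXCL5, CXCL3 and USO1 rose in PEA2 and did not pass in the PEO pair. There CXCL6 and CXCL5 were at or under the floor in both lines, and CXCL3 had at most 6 reads per library. A fall of these 3 genes could hardly have been seen. MTHFD2L, RCHY1, THAP6 and G3BP2 fell in PEO4 and did not pass in the PEA pair. The median log2FC of the 13 was 3.05 in the PEA pair, -1.45 in the PEO pair and 0.22 in the A2780 pair. CXCL5, a neutrophil chemokine, was at least 756-fold higher in PEA2, and IL8 (CXCL8), another, was at least 322-fold higher there and had a log2FC of -5.12 in the PEO pair (FDR = 1.7e-06, limma). PARM1, beyond BTC, was at least 1.34-fold higher in CP70.

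In the PEO pair EREG was higher while the nearest listed gene in the table on each side was lower. MTHFD2L, the nearest of the listed genes on 1 side, had a log2FC of -1.68 (FDR = 6.09e-05, limma). The region was not searched for genes outside the list. AREG on the other side had -3.30, against 3.46 for EREG. The ligand gene EPGN, also listed as a neighbour, was not in the table. No other gene of the 16 drawn in chromosomal order had a log2FC above 0 in the PEO pair. The plot of the ligand neighbourhood shows EREG alone above the line among the PEO values. EREG was chosen because it was higher in this pair, so its own place above the line was set by that choice.

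**Figure D4:**
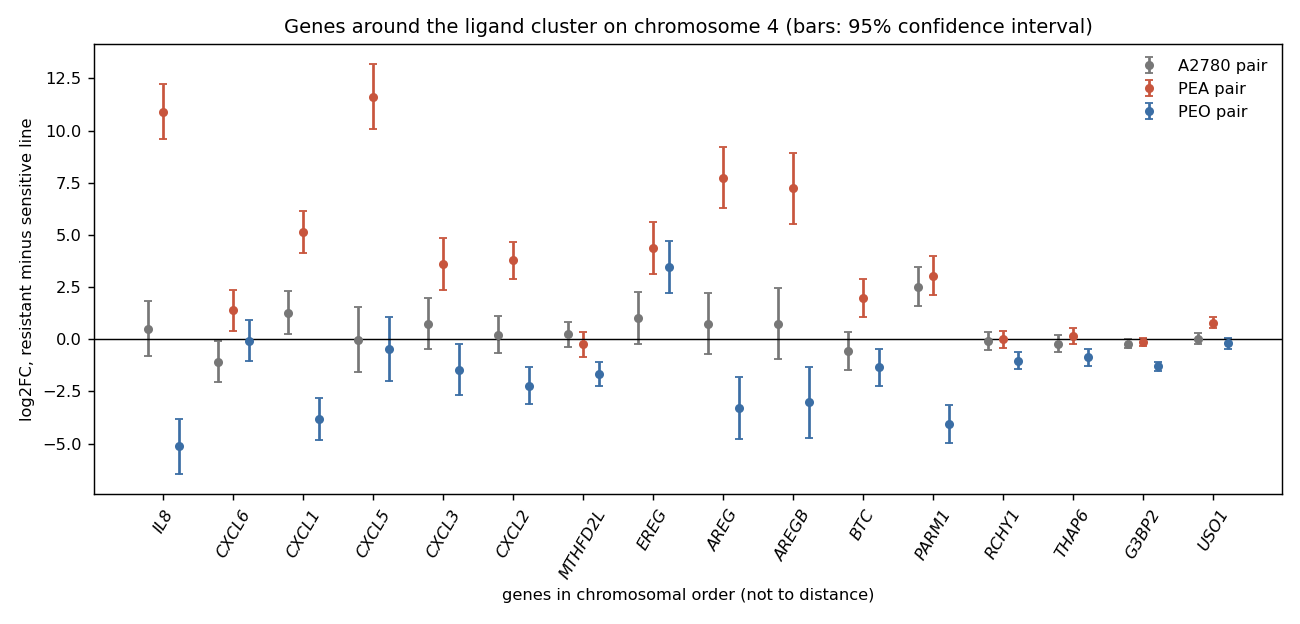
Change of 16 genes around EREG on chromosome 4, in chromosomal order and not to distance. The vertical axis is the log2FC of the resistant minus the sensitive line in each pair and bars are 95% confidence intervals. The EREG bars of the PEA and PEO pairs are not a test, because those changes led to the choice of EREG. EREG is at 3.46 in the PEO pair between MTHFD2L at -1.68 and AREG at -3.30, while in the PEA pair IL8 and CXCL5 reach 10.91 and 11.62.

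Genes that release the ligands, relay the signal and restrain the receptors were counted in the same way. Of all genes, 22.2% rose and 17.7% fell in CP70, 32.5% and 29.4% in PEA2, and 19.6% and 21.9% in PEO4. Of 4 shedding genes, 1 rose and 1 fell in CP70, 1 rose and 2 fell in PEA2, and 2 rose and 1 fell in PEO4. ADAM17, a protease that releases ligands of this family, rose in PEA2 (log2FC 0.77, FDR = 1.94e-05, limma) and in PEO4 (0.76, FDR = 4.58e-05, limma). It fell in CP70 (-0.35, FDR = 0.0301, limma). ADAM10, the other ADAM protease of the list, fell in PEA2 (-0.66, FDR = 1.78e-05, limma) and in PEO4 (-0.29, FDR = 0.0343, limma). Its log2FC in CP70 was 0.08 (FDR = 0.6, limma). Both were named after their values were seen. By the fixed rule, RHBDF1, an inactive rhomboid protein, changed most in CP70 (0.49, FDR = 0.0493, limma) and PEA2 (-2.19, FDR = 7.17e-09, limma), and its paralog RHBDF2, which escorts ADAM17 to the cell surface, changed most in PEO4 (1.47, FDR = 3.85e-07, limma).

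Of 19 adaptor and relay genes in the table, 5 rose and 2 fell in CP70, against 22.2% and 17.7% of all genes. In PEA2 11 rose and 2 fell, against 32.5% and 29.4%, and in PEO4 5 rose and 7 fell, against 19.6% and 21.9%. The largest changes were those of PIK3CB, a PI3K catalytic subunit, in CP70 (log2FC 0.57, FDR = 0.000803, limma), NRAS in PEA2 (-1.63, FDR = 2.02e-12, limma) and PIK3R1, a PI3K regulatory subunit, in PEO4 (2.44, FDR = 1.09e-10, limma). With |log2FC| above 2 also required, 1 of the 19 was called, PIK3R1 upward in PEO4, against 2.86% of all genes. Of 11 inhibitors and turnover genes, 3 rose and 4 fell in CP70, 4 rose and 4 fell in PEA2, and 0 rose and 4 fell in PEO4. The shares of all genes at the FDR alone are the same as for the relay genes. CBLB, a ubiquitin ligase, had a log2FC of -2.23 in CP70 (FDR = 3.9e-08, limma), CBLC was at least 1.88-fold higher in PEA2, and LRIG1, a membrane protein that promotes receptor degradation, had a log2FC of -2.42 in PEO4 (FDR = 3.47e-06, limma).

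Of 16 genes known to respond to ERK, 8 rose and 5 fell in CP70, against 22.2% and 17.7% of all genes. In PEA2 7 rose and 3 fell, against 32.5% and 29.4%, and in PEO4 8 rose and 3 fell, against 19.6% and 21.9%. The median log2FC was 0.16, 0.37 and 0.38 in that order. PHLDA1 rose most in CP70 (log2FC 6.02, FDR = 8.68e-20, limma), from at most 6 reads per library to as many as 648. The phosphatase DUSP5 rose most in PEA2 (2.49, FDR = 4.93e-12, limma), and SPRY1, a feedback inhibitor of receptor signalling, in PEO4 (3.16, FDR = 2.12e-07, limma). Members of the list went both ways within each pair. SPRY4 and SPRED1 fell in both CP70 (log2FC -1.37 and -1.03) and PEA2 (-1.12 and -0.49). The 3 that fell in PEO4 were DUSP4 (-2.43), IER3 (-2.78) and CCND1 (-0.54). EGR1, an immediate early factor named after its values were seen, passed upward in all 3 pairs, with log2FC of 1.94 in CP70, 1.15 in PEA2 and 2.61 in PEO4 and a largest FDR of 3.06e-06 (limma). ETV1, named likewise, and DUSP5 also did, at 2.63, 1.03 and 2.12 and at 0.64, 2.49 and 1.02 in that order. Their largest FDR was 0.000734 (limma). The share of all genes that passed upward in all 3 pairs is not given here. DUSP6, the ERK phosphatase, named likewise, fell in CP70 (-2.12, FDR = 6.27e-12, limma) and rose in PEA2 (1.14, FDR = 4.96e-08, limma) and PEO4 (1.05, FDR = 4.1e-07, limma). Of the 59 listed genes of all these groups, 53 were in the table. Of these, 19 rose and 13 fell in CP70, 25 rose and 12 fell in PEA2, and 17 rose and 15 fell in PEO4. The shares of all genes are those given for the ERK list. Kinase activity and protein levels were not measured.

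**Figure D5:**
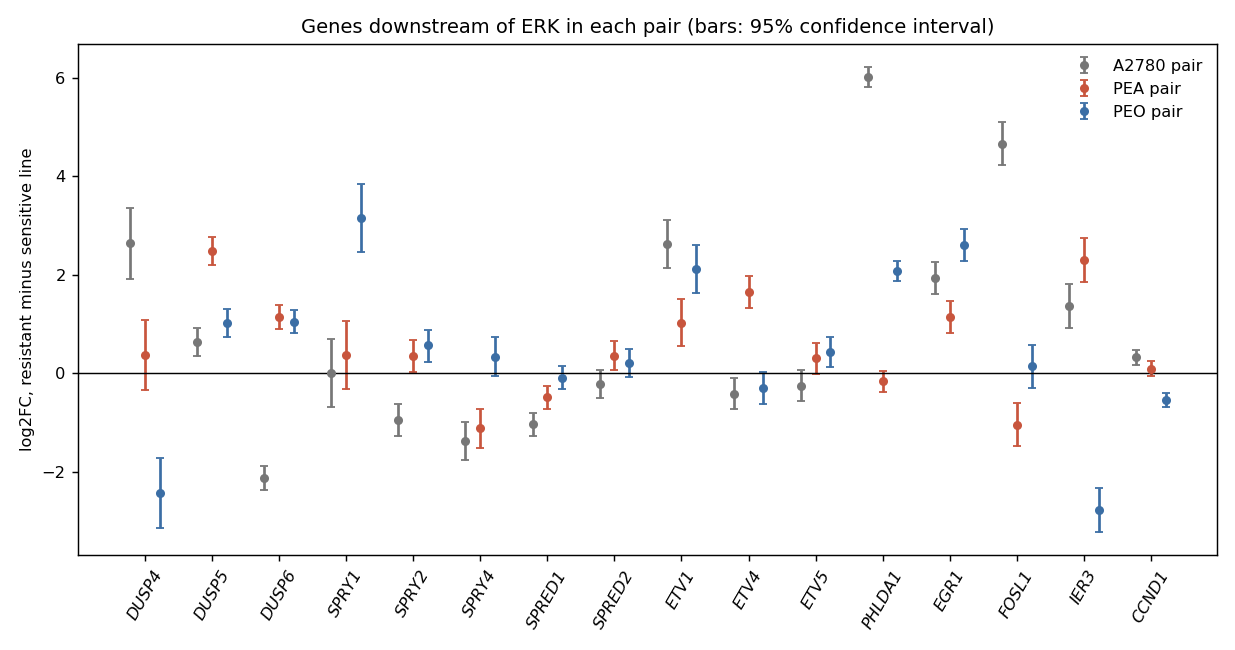
Change of 16 genes downstream of ERK in each pair. The vertical axis is the log2FC of the resistant minus the sensitive line and bars are 95% confidence intervals. PHLDA1 is at 6.02 in the A2780 pair. EGR1, ETV1 and DUSP5 are above 0 in all 3 pairs, while DUSP6 is below 0 in the A2780 pair alone. SPRY4 and SPRED1 are below 0 in the A2780 and PEA pairs, and DUSP4, IER3 and CCND1 in the PEO pair.

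The genes whose pattern was most like that of EREG over the 18 libraries, by Pearson's r of the log2 values, were NRIP1 (0.977), TFPI2 (0.971), MSN (0.97), PLAT (0.969) and ETV6 (0.967). TFPI2, a protease inhibitor, had its highest mean log2 value in PEA2, 11.71 ± 0.07, and its lowest in A2780, -0.33 ± 0.43 (SD, n = 3). For EGFR they were LIMCH1 (0.988), NHS (0.981), PTPRJ (0.977), MCU (0.972) and CLDN1 (0.972). For ERBB3 they were LGR4 (0.974), ENSG00000230847 (0.972), SPOCK2 (0.96), KIAA1244 (0.958) and MTL5 (0.954). The 18 libraries are 6 lines in triplicate, so each r describes in the main how 6 line means are arranged.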

How the data were processed

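RNA-seq of 18 libraries was used, 3 from each of 6 lines. Per the submitters' processing notes and the paper's methods, reads were aligned to hg19 (Bowtie2 is listed), assigned to genes with featureCounts and normalized with limma. The authors deposited log2 CPM values with 0.5 reads added. Whole reads were recovered within 0.01 for 100% of values. Replicates differed by more than read sampling (chi-square per degree of freedom 1.74 to 13.5). The alignment's handling of near-identical copies, the strand setting of the counting and the gene filter are not given in the sources used here, so genes that overlap on either strand are uncertain.

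The log2 values were fitted with limma 3.58.1 in R 4.3.3, with a mean per line and a variance trend, and the Benjamini-Hochberg FDR was taken over 12853 genes. Genes were called at FDR below 0.05, and also with |log2FC| above 2. A fold against a line with at most 3 reads in every library was computed against 3 reads. The scripts were tested on simulated data.

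The 8 genes and the lists were chosen with earlier results of these data known. The named genes were the 8, the other ligands and ERBB4, the largest change of each list in each pair, and the 5 genes most correlated with EREG, EGFR and ERBB3. Alternatives were a fit per pair, keeping genes with a mean above 0 on the log2 scale (355 genes removed), quantile normalization, the replicate block, no trend, 2 reads added, voom weights, |log2FC| above 1, each library left out, and AREG with AREGB summed. Gene positions are from a GRCh37 annotation that matched 12642 identifiers, and promoters from RefSeq on GRCh38.p14. Measurements other than RNA-seq were not analysed here.

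Within a pair, the deviations of same-numbered libraries from the mean of their line had average correlations of 0.0185 (A2780), 0.00063 (PEA) and 0.00478 (PEO), so the numbers were not taken to pair samples.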

Additional observations from a re-analysis of the deposited data

Results flagged for a closer look

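The change from the sensitive to the resistant line differed between pairs, by limma's contrast of the changes with the FDR over all genes, in 17 comparisons of 7 genes. As 47.5% to 58.7% of all genes differed in the same way, the values are given without explanation, as the log2 difference with its FDR.

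Between the PEA and PEO pairs, the PEA change was higher by 11.04 for AREG (FDR = 1.41e-08), 6.59 for ERBB3 (9.23e-08), 3.33 for BTC (1e-04), 2.10 for EGFR (8.5e-06) and 1.82 for ERRFI1 (2.74e-07). AREG and BTC rose in PEA2 and fell in PEO4, so for these genes the direction itself differed. Between the PEA and A2780 pairs, the difference was 7.0 for AREG (5.82e-06), 2.54 for BTC (0.00138), 1.38 for TGFA (0.00426), -0.67 for ERBB2 (0.000598), -3.17 for EGFR (3.84e-08) and -3.94 for ERRFI1 (4.03e-12). Between the PEO and A2780 pairs it was 1.25 for TGFA (0.0103), -0.96 for ERBB2 (1.96e-05), -4.05 for AREG (0.00224), -5.27 for EGFR (3.2e-11), -5.31 for ERBB3 (2.34e-06) and -5.76 for ERRFI1 (1.49e-14). The AREG, BTC and TGFA comparisons with the A2780 pair rest on at most 2 reads per library there.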

How the results depend on the processing

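Of 735 single-gene values under the alternatives, 719 kept their side of the threshold (for EREG in the patient-derived pairs, stayed within the replicate spread). Another 6 fell short of the threshold, 8 newly passed it and 2 moved beyond the replicate spread. Reversals, which for tested values were counted only if the value passed before or after, numbered 0. Some values that passed in neither fit changed sign, such as AREG in the A2780 pair, from 0.75 to -0.02 with 2 reads added. Of 258 counts, 254 stayed within 1.5 times. Quantile normalization moved the EREG log2FC to 4.03 for PEA2 and 4.85 for PEO4, and moved the median of all genes in the PEA pair from 0.005 to -0.1. It also brought the PEA minus A2780 difference of ERBB3 (2.75, FDR = 0.00665) and the PEO minus A2780 difference of BTC (-1.66, FDR = 0.0326) past the threshold, as 2 reads added did for ERBB3 (0.86, FDR = 0.0225). With the pair fitted alone or voom weights, 0 of the 7 genes fell in CP70 in place of 1, since TGFA, near the floor, no longer passed (FDR 0.114 and 0.186). Voom weights also brought TGFA past the threshold in the PEA pair (0.32, FDR = 0.0336) and lost its differences from the A2780 pair (FDR 0.0762 and 0.123). At |log2FC| above 1, 4 genes rose in PEA2 and 1 fell in CP70. Leaving out each library in turn gave an EREG log2FC of 4.25 to 4.48 for PEA2 and 3.36 to 3.64 for PEO4, a BTC log2FC of 1.51 to 2.26 in PEA2, and 2 to 3 genes up there at |log2FC| above 2. The replicate block, over numbers that did not pair the samples, changed no call of the 8 genes (BTC in the PEO pair -1.35, FDR = 0.0175). The low PEA1 depth and the few reads in A2780, CP70 and PEA1 limit the size of the AREG and ERBB3 changes.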
